A study of Mus musculus with 9 samples.

Results

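The genes described here are pairs of rows of the count table that lie head to head on opposite strands: the row on the minus strand starts first on the chromosome, the row on the plus strand starts inside it, and the plus row ends beyond it. Their 5′ ends therefore overlap and their transcription runs apart. The table, on the mouse genome build GRCm38, held 969 such pairs on 19 chromosomes, made of 1913 distinct rows of 25965 (7.37%); the mitochondrial genome and chromosome 18 were left out. They are 969 of 3690 pairs of overlapping rows on opposite strands, beside 1073 convergent pairs, which overlap at their ends, and 1648 nested pairs, in which one row lies within the other. A total of 19 rows belonged to more than 1 pair, and Gm20528 belonged to 8.

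Total RNA came from sciatic nerves, stripped of the epineurium, of C57BL/6 mice at postnatal day 15 in a label field and day 14 in the protocol. The groups were control mice, PINCH1 mutants and PINCH2 mutants, each with 3 libraries, and 4 nerves, taken from 1 male and 1 female, were pooled for each library. P-values therefore measure the spread between pools. PINCH1 and PINCH2, encoded by Lims1 and Lims2, are adaptor proteins that form a complex with integrin-linked kinase and parvins at integrin adhesions. The alleles, the cells in which they act and what the controls carry are not stated in the labels.

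Genes that start head to head often share a bidirectional promoter, a short stretch from which RNA polymerase leaves in both directions. Such promoters are often rich in CpG dinucleotides and poor in TATA boxes, and many serve genes that all cells use, for DNA repair, mitochondrial proteins or protein folding. The second transcript can also be a long noncoding RNA, and the transcripts of 1 pair need not reach the same level.

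The letters at the shortest overlaps show how close the 2 starts of a pair can lie. Each line below gives 30 bases of the plus strand around the overlap, from RefSeq (GRCm38.p6), with the bases shared by both rows in capitals; the first 3 are among the 5 shortest overlaps with at least 10 counts, and Col4a1 and Col4a2 encode the chains of type IV collagen.
Capza1 and St7l: aagagggcgccatGTCagttccgcgcgggt
Cox15 and Cutc: gcacttccgggtCAGGCgtcgtgcgcgccc
Kdm2b and Orai1: aggctccggtcGCGGCCGcttggaacttgc
Col4a1 and Col4a2: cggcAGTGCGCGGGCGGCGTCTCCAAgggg
The overlap of Capza1, an actin-capping subunit gene, with St7l was 3 bases long (chr3:104864490-104864519 for the printed run). That of Cox15, an enzyme gene of heme A synthesis, with Cutc was 5 bases (chr19:43752984-43753013). Kdm2b, a histone demethylase gene, and Orai1, a calcium channel gene, shared 7 bases (chr5:123015063-123015092), and the collagen genes shared 22 (chr8:11312801-11312830).

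Longer stretches upstream of a start show the sequence that lies within the partner's span where neither gene has an annotated exon. They were chosen after the counts were seen, for pairs described below. Capitals mark the GC box GGGCGG on either strand, 1 match upstream of Surf1, 2 upstream of Cldn19 and 3 upstream of Serf2.
Surf1: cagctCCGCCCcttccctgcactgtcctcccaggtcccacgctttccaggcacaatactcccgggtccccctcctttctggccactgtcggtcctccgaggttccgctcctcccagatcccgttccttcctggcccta
Cldn19: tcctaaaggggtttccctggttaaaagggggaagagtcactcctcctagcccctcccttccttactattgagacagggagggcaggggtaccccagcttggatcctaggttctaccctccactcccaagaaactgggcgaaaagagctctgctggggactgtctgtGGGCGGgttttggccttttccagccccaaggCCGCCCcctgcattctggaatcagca
Serf2: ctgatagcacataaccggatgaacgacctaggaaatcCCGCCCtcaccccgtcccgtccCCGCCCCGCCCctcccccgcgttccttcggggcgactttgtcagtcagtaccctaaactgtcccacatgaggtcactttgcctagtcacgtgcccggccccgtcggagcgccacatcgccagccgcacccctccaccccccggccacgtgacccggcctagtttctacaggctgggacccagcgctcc
The Surf1 stretch is on the minus strand at chr2:26916531-26916668, and the Cldn19 (chr4:119255191-119255413) and Serf2 (chr2:121448948-121449194) stretches are on the plus strand. The 247 bases upstream of Serf2 held 22 CG dinucleotides, the 138 bases upstream of Surf1 held 7 and the 223 bases upstream of Cldn19 held 3. Cldn19, a claudin gene of Schwann cell tight junctions, thus had the stretch with the fewest CG dinucleotides of these.

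Over all coding rows of divergent pairs, 1120 of 1375 (81.5%) had a RefSeq promoter window of 300 bases, 250 before to 50 after the start. Their median GC content was 60.7%, against 56.7% for the windows of 15336 other coding rows, and their median ratio of observed to expected CpG was 0.736, against 0.593. Of these windows, 85.9% and 92.8% started within 1000 bases of the row's own start; over those alone the median GC content was 61.0% and 57.0%, the CpG ratio 0.746 and 0.609, and the share with a TATA box 6.24% and 13.3%. That limit was set aside as it kept only 70.0% and 74.1% of all coding rows. The TATA box TATAAA was found in 6.7% of the windows of divergent rows and in 13.2% of the others. The GC box GGGCGG was found in 59.5% and 47.9%, the ETS core CCGGAAG in 20.8% and 11.9%, and CCAAT in 35.5% and 39.3%. Longer and rarer elements were searched by their full consensus: that of YY1 was found in 1.88% and 0.978%, that of NRF1 in 0.625% and 1.43%, and the palindrome bound by ZBTB33 in 1.25% and 0.737%. In that order, these shares rest on only 21, 7 and 14 windows of divergent rows, and on 150, 220 and 113 of the others. Both strands were searched, the matches are descriptions of letters, and the windows of a pair can overlap each other, so they are not independent.

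Most pairs joined coding genes to each other (446 pairs) or a coding gene to a long noncoding RNA (456). A further 33 joined a coding gene to a row absent from GENCODE M21, an annotation on that build, 21 held long noncoding rows only, and 13 were of other kinds. The spans overlapped by 3 to 147785 bases, with a median of 634 and quartiles of 307 and 1601. In 733 of the 930 pairs with annotated exons for both rows, exons of the 2 rows overlapped each other, and in 197 they did not. The mean count of both rows together had a median of 28.8 over the pairs with exonic overlap and 3.89 over those without.

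Library totals ran from 957828 to 1204964 counts, and divergent rows took 11.5% to 12.6% of each library. Lims1 had 3 to 7 counts in controls, 0 to 3 in PINCH1 mutants and 0 to 9 in PINCH2 mutants, and Lims2 had 1 to 9, 1 to 5 and 1 to 5, too few to check the labels; neither is in a divergent pair. All 10 markers of myelinating Schwann cells were detected, with a summed level of 15200 to 17500 CPM (counts scaled to the library size) in controls, 12000 to 13300 in PINCH1 mutants and 11800 to 13700 in PINCH2 mutants. Fibroblast markers summed to 562 to 1340 CPM and macrophage markers to 483 to 666, with Aif1 at 0. Endothelial, muscle, adipocyte, neuron and erythroid markers each summed to 23.4 CPM or less, and Acta1, Plin1, Adipoq, Snap25 and Rbfox3 were at 0. In whole nerves, fewer cells of a type and less RNA per cell cannot be told apart. The strand setting of the counting is not known either, so a row with few or 0 counts need not mean a gene with little RNA.

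How the 2 rows of a pair compare was asked first. Of the 969 pairs, 85 had 0 counts in both rows, and 574 had a mean of at least 10 counts over both rows and all 9 libraries. In 332 of the 574 (57.8%), 1 row held at least 90% of the counts, and the median share of the row with more counts was 92.8%. The plus row had more counts in 272 pairs and the minus row in 302, so neither strand led throughout. Only 47 pairs were near balance, with 40% to 60% of counts on the plus row. The limits of 90%, 40% and 60% were chosen after the counts were seen. For comparison, 50.9% of convergent pairs and 71.1% of nested pairs had such a dominant row.

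**Figure D1:**
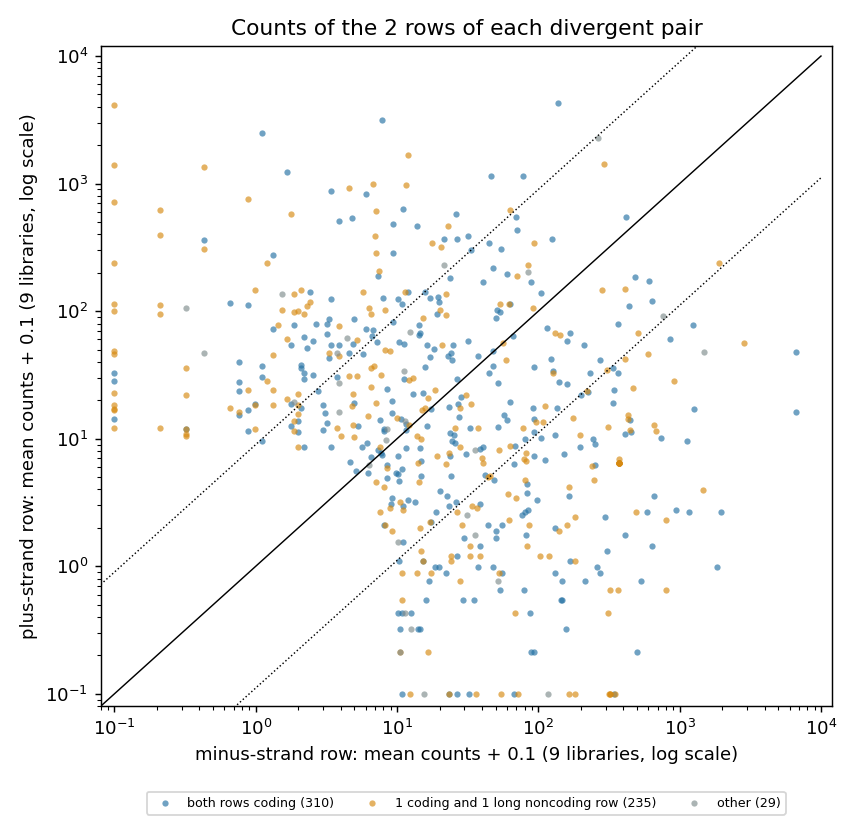
Mean counts over 9 libraries of the minus-strand row (x axis) and the plus-strand row (y axis) of the 574 divergent pairs with at least 10 counts, with 0.1 added for the log axes. The solid line marks equal counts and the dotted lines 90% of the counts on 1 row; 332 pairs lie on or outside the dotted lines, on both sides.

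The plot of both rows' counts shows pairs along both axes rather than around the diagonal. Which row led was mostly the same in all genotypes: the same row had more counts in the pooled libraries of all 3 groups in 539 of the 574 pairs, and in each of the 9 libraries in 476. Counts were then divided by the merged exon length of each row, since a longer transcript gathers more reads. Of the 552 pairs with known lengths, the plus row was higher per kilobase in 237 and the minus row in 270, by a two-sided exact permutation test that flips signs over the 9 libraries (adjusted p under 0.05 over 2052 opposite-strand pairs). Among all these opposite-strand pairs the same calls were made for the plus row in 45.3% and for the minus row in 46.1%. In the other 45 divergent pairs neither row was called. The median absolute difference was 3.80 on the log2 scale of counts per kilobase. Because the smallest p this test can give is 0.00391, many pairs share that value, and it ranks nothing.

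A further gene on the strand opposite to 1 of the rows was often present. In 221 pairs, exactly 1 row had exons that overlapped those of a further gene on its opposite strand, and that row had more counts than its mate in 181 of them (81.9%). The median was 116 counts for the row with the further overlap and 6.33 for the row without. Between coding genes alone it was 87 of 106 pairs. These were counted after the values were seen. No source used here gives the strand setting of the counting, so reads of a row and of a gene opposite to it cannot be told apart. Every count here is therefore that of the named row in the table. If the rows held reads of the opposite strand, those of a row could come from its mate or from a further gene opposite to it. Which gene of a pair is the higher one is therefore not shown. Values per kilobase, above and below, divide by the row's own exon length and carry the same limit. Among the 325 pairs in which neither row had such a further overlap, 164 (50.5%) still had at least 90% of counts on 1 row. Without a further overlap it was 50.9% of convergent pairs and 73.3% of nested pairs, so divergent and convergent pairs were then alike.

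The pair with the most counts was Serinc4, of the serine incorporator family, with Serf2, which encodes a small protein that modifies protein aggregation (chr2:121439059-121456781 and chr2:121449195-121458313). Serinc4 had 5857, 6971 and 6727 counts in control pools, 7063, 6053 and 7203 in PINCH1 mutants and 5183, 8313 and 6425 in PINCH2 mutants. Serf2 had 65, 38 and 50 counts in control pools, 48, 27 and 48 in PINCH1 mutants and 34, 64 and 59 in PINCH2 mutants. The groups overlapped in both rows, and the lowest Serinc4 value lay far above the highest Serf2 value. Per kilobase, Serf2 was lower by 7.38 ± 0.38 on the log2 scale (SD over 9 libraries; exact permutation p = 0.00391, adjusted p = 0.00463). Serinc4 formed another pair with 2310003F16Rik, which had 8 to 26 counts per library.

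Iqck, a gene for a protein with a calmodulin-binding motif, led its pair with 2310008H09Rik. Iqck had 3462 to 5081 counts per library, and 2310008H09Rik had 111 to 170. Exons of Iqck also overlap Gprc5b, an orphan receptor gene on the other strand. Wdr38, which encodes a WD-repeat protein, had 3172 to 4972 counts while Gm13496 had 0 in all libraries, which allows Gm13496 up to 0.00807% of their 37184 counts. The exons of Wdr38 overlap Rpl35, a gene of the large ribosomal subunit.

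The row 1110005A03Rik had 2255 to 3737 counts and Jmjd6, an oxygenase gene, had 2 to 12; 1110005A03Rik also overlaps Srsf2, a splicing factor gene. Ahsa2, a gene of the Hsp90 co-chaperone family that also overlaps Usp34, had 2504 to 3251 counts against 32 to 80 for 1700030C12Rik. Cntd1, a cyclin-domain gene that also overlaps the autophagy gene Becn1, had 2171 to 2885 counts against 0 to 3 for Ccdc56. Abi3, an adaptor gene of actin regulators that also overlaps Phospho1 and Zfp652, had 1533 to 2243 counts against 0 to 5 for Gngt2, a G-protein gamma subunit gene. In these 4 pairs the row with the further partner led by far in all 9 libraries. The pair 2700073G19Rik and 1810035L17Rik was less uneven, with 89.7% of counts on 1810035L17Rik, which also overlaps Snw1.

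Gm12927 and Cldn19 differed from the other 9 of the 10 pairs with the most counts in that neither row had a further opposite-strand partner. Gm12927, a long noncoding row (chr4:119252522-119256975), had 1666, 1713 and 1922 counts in control pools, 2028, 1691 and 2305 in PINCH1 mutants and 2025, 2129 and 1481 in PINCH2 mutants. Cldn19 (chr4:119255414-119262438) had 210, 232 and 285, then 243, 198 and 241, then 195, 278 and 279 counts in the same order. The rows share 90 bases of exon, and the 3 genotypes overlapped in each. Cldn19 took 12.01% ± 0.86 (SD, n = 3) of the pair's counts in controls, 10.2% ± 0.66 in PINCH1 mutants and 12.1% ± 3.56 in PINCH2 mutants. Gm12927 took the rest, 88.0% ± 0.863, 89.8% ± 0.659 and 87.9% ± 3.56 (SD, n = 3) in the same order. With the strand setting unknown, these are shares of rows, and which gene led is not shown. A Cldn19 share under opposite-strand counting cannot be read off by exchanging the rows, as they share only those 90 bases of exon. The stretch upstream of Cldn19, printed above, lies inside Gm12927.

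**Figure D2:**
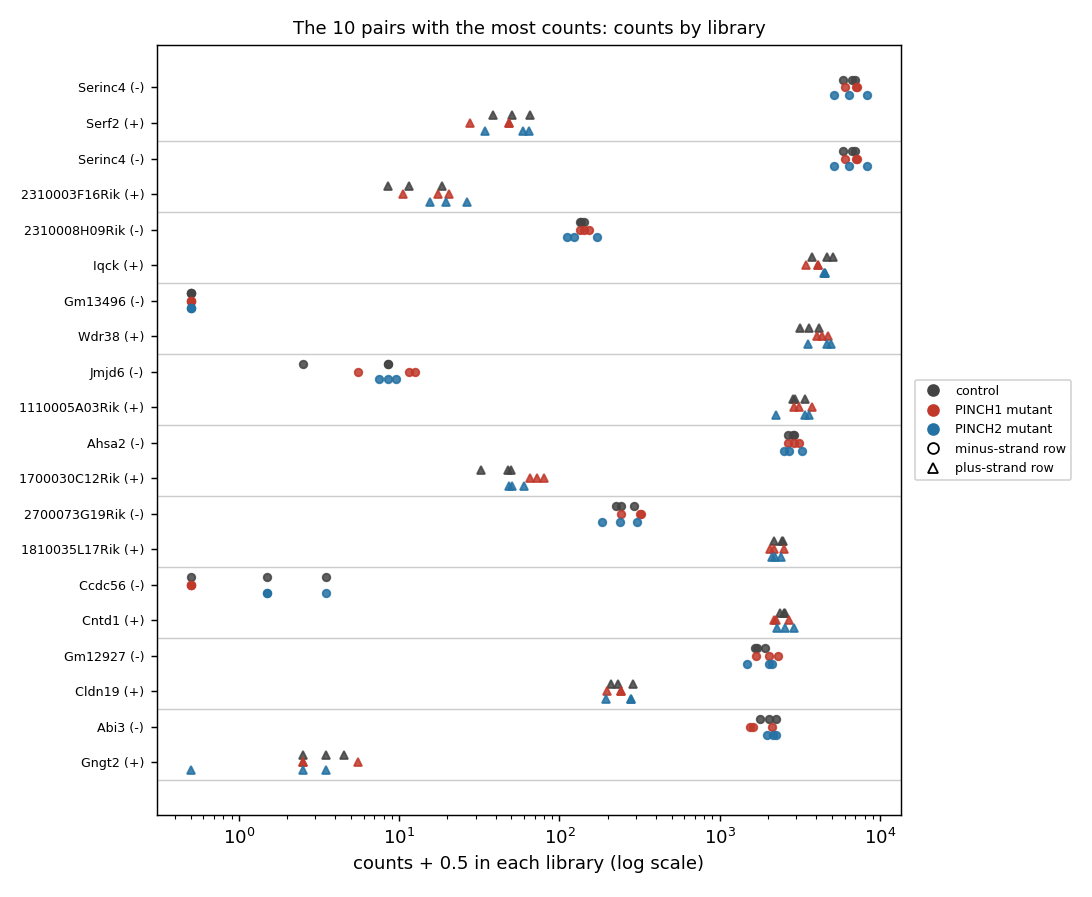
Counts in each library (x axis, log scale, 0.5 added) of both rows of the 10 divergent pairs with the most counts; circles are minus-strand rows, triangles plus-strand rows, and colours the 3 genotypes with 3 libraries each. Within each of the 10 pairs the 2 rows stand apart by far more than the genotypes do.

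The plot of the 10 pairs shows the genotypes of a row lying together and the rows of a pair lying apart. Among the pairs with both rows past the filter on low counts, the least even others followed the same lines. Rnf214, a ubiquitin ligase gene over Bace1, had 1025 to 1251 counts against 0 to 16 for Pcsk7, a proprotein convertase gene over Tagln. Wdr83 led BC056474 with 742 against 10 mean counts, and Yipf2 led 1810026J23Rik with 1254 against 17.1. On the plus side, Gm5577 led the linker histone gene H1fx with 1662 against 11.8, Gm14872 led Tomm6, a subunit of the mitochondrial import pore, with 968 against 11.6, and Ydjc led Ccdc116 with 629 against 10.9. Tox4 led Rab2b with 481 against 9.22 mean counts, and Kbtbd4 led the complex I gene Ndufs3 with 462 against 13.8.

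Few pairs held near equal counts on both rows. Cops3, a COP9 signalosome gene, had 28, 64 and 37 counts in control pools, 62, 61 and 54 in PINCH1 mutants and 41, 54 and 25 in PINCH2 mutants. Its partner Nt5m, a mitochondrial nucleotidase gene, had 41, 40 and 47, then 50, 37 and 73, then 50, 62 and 34 counts. The rows overlapped in all groups, and per kilobase they differed by 0.10 ± 0.49 on the log2 scale (SD over 9 libraries; exact permutation adjusted p = 0.559). Aarsd1 and Rundc1 were likewise not told apart, at 17.3 and 17.0 mean counts and a log2 difference per kilobase of -0.11 ± 0.77 (SD over 9 libraries). The other 4 nearest to equal counts were Ccdc77 with the histone demethylase gene Kdm5a (11.6 and 11.6 mean counts), the transcriptional regulator gene Purb with Gm11973 (56.2 and 56.6), Zfyve9 with AL607070.1 (65.9 and 63.2) and Gm7628 with the plexin gene Plxnb1 (12 and 12.7). Length changes that picture: per kilobase, Gm11973 was 2.80 ± 0.97 (SD) above Purb on the log2 scale, with an exact permutation adjusted p of 0.00463. With near equal counts, this gap comes from the exon lengths and holds only if the reads are those of the named rows' genes.

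Where a coding row met a long noncoding row, the noncoding row had more counts in 157 of 235 pairs (66.8%). Per kilobase it was higher in 167 and the coding row in 53, and the median log2 difference was 3.86 in favour of the noncoding row. With the strand setting unknown, this direction is that of the rows and not shown for the genes. An order of the genes under opposite-strand counting cannot be read off by exchanging the rows, as they share only part of their exons, or none. No difference per kilobase was computed for opposite-strand counting, since reads would then be divided by the length of the other row. Where a row had a further opposite-strand partner, its reads could also be those of that gene. Without any further opposite-strand partner, the noncoding row had more counts in 75 of 122 pairs (61.5%). In 310 pairs of coding genes, 52.9% had at least 90% of counts on 1 row.

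At the shortest overlaps the rows could be as uneven as elsewhere. Cox15 had 459 to 636 counts and Cutc 0 to 1, and Cox15 also overlaps Entpd7. St7l had 26 to 112 counts and Capza1 2 to 18, with no further partner for either. Kdm2b had 7 to 20 counts and Orai1 0 to 1. BC037034 and 6330418K02Rik shared 12.1 and 28.8 mean counts, and Gm14455 and 2410001C21Rik 7 and 4.44. The 5 longest overlaps all belonged to Gm20528 with Ugt1a9, Ugt1a8, Ugt1a7c, Ugt1a6b and Ugt1a6a, glucuronosyltransferase genes that share exons. Gm20528 had 307 to 427 counts per library and these Ugt1a rows had 1 to 15, with the same values in all libraries for 4 of the 5, so they count as 1 observation.

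Pairs known from textbooks to share a promoter were the next group. Of 26 such genes in the table, 14 were members, as 7 whole pairs, of which 6 are described. In Surf1 and Surf2, housekeeping genes of the surfeit cluster, Surf1 (chr2:26913383-26916530) acts in the assembly of cytochrome oxidase. Surf1 had 52, 40 and 47 counts in control pools, 70, 38 and 59 in PINCH1 mutants and 43, 50 and 29 in PINCH2 mutants. Surf2 (chr2:26916367-26920183), which also overlaps Surf4, had 209, 232 and 189, then 195, 254 and 259, then 169, 252 and 214 counts. Surf2 was higher in all 9 libraries, by 1.26 ± 0.43 on the log2 scale per kilobase (SD; exact permutation adjusted p = 0.00463).

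The collagen pair Col4a1 and Col4a2 encodes chains that are built into the same trimer of basement membranes. Col4a1 (chr8:11198423-11312826) had 117, 133 and 170 counts in control pools, 127, 65 and 107 in PINCH1 mutants and 108, 111 and 90 in PINCH2 mutants. Col4a2 (chr8:11312805-11449287) had 72, 66 and 106, then 99, 25 and 67, then 70, 79 and 85 counts. Col4a1 was ahead in every library, and both rows were lowest in the same PINCH1 mutant library. Per kilobase Col4a2 was lower by 0.49 ± 0.37 on the log2 scale (SD over 9 libraries; exact permutation adjusted p = 0.00892), a far smaller gap than in most pairs. The log2 fold change of Col4a1 in PINCH1 mutants was -0.51 (SE 0.22) and that of Col4a2 was -0.40 (SE 0.31), with edgeR adjusted p = 0.717 and 0.867.

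Hspd1 and Hspe1 encode the mitochondrial chaperonin and its co-chaperonin, which work as 1 machine. Hspd1 had 23, 39 and 39 counts in control pools, 28, 32 and 22 in PINCH1 mutants and 14, 26 and 22 in PINCH2 mutants. Hspe1 had 10, 20 and 30, then 14, 4 and 9, then 11, 29 and 6 counts. At 10.3 and 10.03 mean counts per kilobase they were not told apart (exact permutation adjusted p = 0.540 over the 9 libraries). Paics and Ppat, enzymes of purine synthesis, had 22.3 and 12.8 mean counts. Paics was higher per kilobase, by 1.67 ± 1.24 on the log2 scale (SD over 9 libraries; exact permutation adjusted p = 0.00463).

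A further 2 textbook pairs were far from even. Trmt2a, a tRNA methyltransferase gene that also overlaps Dgcr8, had 647 to 930 counts, and Ranbp1, a Ran-binding protein gene, had 1 to 12. Tk1, for thymidine kinase, had 56 to 137 counts and Afmid, for a formamidase of tryptophan breakdown, had 0 to 1, with no further partner for either.

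**Figure D3:**
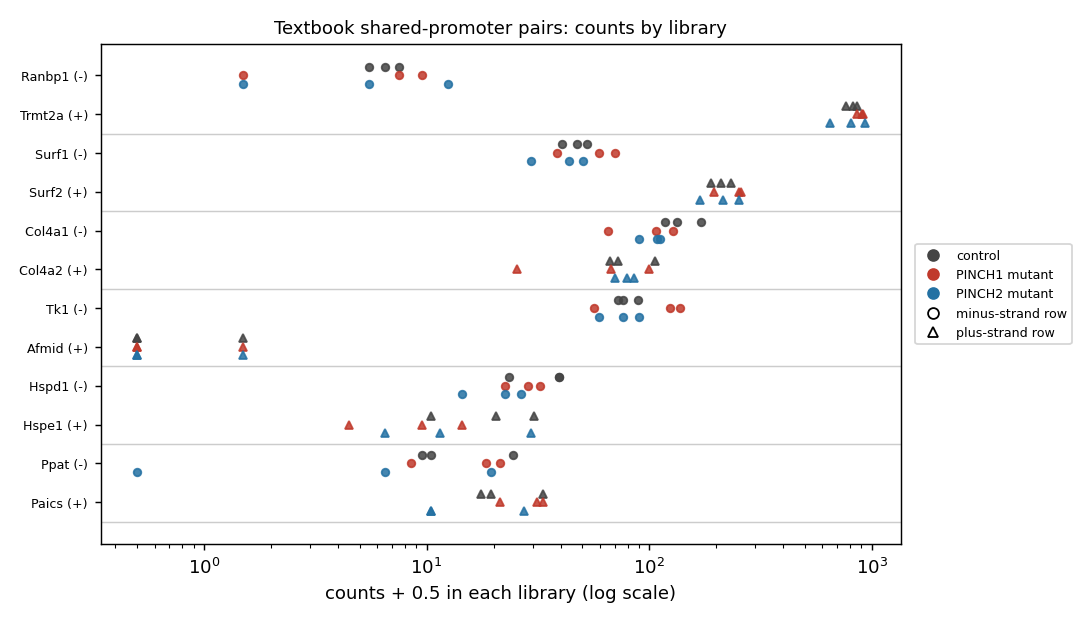
Counts in each library (x axis, log scale, 0.5 added) of both rows of 6 divergent pairs known to share a promoter; circles are minus-strand rows, triangles plus-strand rows, and colours the 3 genotypes with 3 libraries each. Hspd1 and Hspe1 overlap along the axis, while Trmt2a and Tk1 stand apart from their mates.

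The plot of the 6 pairs shows both kinds side by side, from the overlapping chaperonin rows to pairs with 1 row of few counts. Rows with the fewest counts, such as Ppat with 0 to 24, spread over a wide range within each genotype.

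Genes of the mitochondrial respiratory chain, a list taken by symbol that also held ATP synthase subunits, were mostly the lower row. Of 93 such genes, 11 were members, and 10 of these 11 had fewer counts than their mate, with a median of 10.1 counts against 284 for the mates. With the strand setting unknown, this order holds for rows only. If the rows held reads of the opposite strand, those of a mate could be of the listed gene or of a further gene opposite to the mate. Rows such as Ndufs3 and Atp5d make up this group, and Atp5j had 31.8 mean counts against 391 for Gabpa, a transcription factor gene. The exception was Atp5f1, with 97.6 against 3.22 for Wdr77. Of 12 mitochondrial ribosome genes, 5 of the 10 with enough counts were the lower row, and Mrpl47, with 636 mean counts, formed a pair with the complex I gene Ndufb5, with 1.33.

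The cytosolic ribosome had 6 members, of which 3 were the lower row. Rpl18 had 77.2 mean counts against 1234 for Sphk2, a sphingosine kinase gene that also overlaps Dbp, and Rpl15 had 46.3 against 1157 for Nkiras1, which also overlaps Ube2e1. Rps18 had 48.6 against 4.67 for Vps52. Of 10 chaperone genes, 3 of 8 with enough counts were lower; Tcp1, a subunit of the cytosolic chaperonin, had 274 mean counts against 1.22 for Mrpl18. All 3 aminoacyl-tRNA synthetase genes among the members were the lower row, with 0.111 to 2.44 mean counts. Of 4 DNA repair and replication genes, 1 of 3 with enough counts was lower, and Mcm7, a replicative helicase subunit, had 51.6 against 27.4 for Ap4m1.

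Among integrin adhesion genes, Ilk and Tln1 were members. Ilk, for the kinase that binds PINCH proteins, had 152, 161 and 202 counts in control pools, 211, 151 and 199 in PINCH1 mutants and 189, 236 and 176 in PINCH2 mutants, so the groups overlapped. Its mate Rrp8, a ribosomal RNA processing gene, had 350 to 602 counts per library and more than Ilk in all 9. Tln1, for the integrin activator talin, had 49.8 mean counts against 88.1 for Creb3, a transcription factor gene that also overlaps Gba2. The log2 fold change of Ilk was 0.11 (SE 0.18) in PINCH1 mutants and 0.23 (SE 0.18) in PINCH2 mutants, with edgeR adjusted p = 0.959 and 0.999. Cldn19 was the only 1 of the 31 Schwann cell and myelin genes in a divergent pair.

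Whether the members differ between PINCH1 mutants and controls was tested with edgeR over all 4738 rows past the filter, 769 of them members. With an adjusted p under 0.05, 0 members passed as higher and 0 as lower, against 0.0211% and 0.0422% of all tested rows. At an unadjusted p under 0.05, there were 21 higher and 11 lower members, where 2.28% and 4.09% of all rows were, so the members' shares were 2.73% and 1.43%. The groups did not overlap for 69 higher and 27 lower members, 8.97% and 3.51% of them, against 6.16% and 7.49% of all rows. The median log2 fold change of members was 0.093, and -0.022 over all rows tested; 60.9% and 47.8% lay above 0.

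The member with the smallest p was Dnajc7, a co-chaperone gene of the Hsp40 family (chr11:100582818-100620168). It had 759, 386 and 554 counts in control pools, 330, 243 and 338 in PINCH1 mutants and 472, 410 and 457 in PINCH2 mutants. All 3 PINCH1 mutants lay below the lowest control, and the first control stood above the other libraries. The means were 286 ± 13.1 CPM in PINCH1 mutants and 548 ± 215 in controls (SD, n = 3), which is a log2 difference of -0.94 (SE 0.22, edgeR adjusted p = 0.210). Without any filter on low counts the adjusted p was 0.00185, with a filter of at least 1 CPM in 3 libraries it was 0.000833, and without the second control it was 0.00859 at a log2 fold change of -1.16. Without the first control the log2 fold change was -0.58 and the adjusted p 0.707. Exons of Dnajc7 also overlap Cnp, a myelin gene of Schwann cells, whose marker sum given above was lower in the mutants too; their part in this value was not tested.

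Nespas, the long noncoding antisense transcript of the imprinted Gnas locus (chr2:174281237-174295436), had 47, 154 and 75 counts in control pools, 274, 131 and 191 in PINCH1 mutants and 124, 167 and 121 in PINCH2 mutants. In raw counts and per library total the groups overlapped, with 154 counts in the second control and 131 in the second PINCH1 mutant. Only after the TMM scaling of the test did all PINCH1 mutants lie above the controls. The log2 fold change was 1.09 (SE 0.32, edgeR adjusted p = 0.443). This adjusted p was 0.00413 with no filter, 0.00317 with the filter of at least 1 CPM and 0.00264 without the second control, where the log2 fold change was 1.68. Gnas, which encodes the stimulatory G-protein alpha subunit, had 66, 107 and 64, then 63, 38 and 41, then 50, 81 and 74 counts, with a log2 fold change of -0.75 (SE 0.29, edgeR adjusted p = 0.650).

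Next in order of p, and also short of the threshold, was Ndrg1, a gene of myelinating Schwann cells whose loss causes a demyelinating neuropathy. It had 268, 359 and 457 counts in control pools and 234, 215 and 267 in PINCH1 mutants, a log2 fold change of -0.59 (SE 0.18, edgeR adjusted p = 0.406). Its mate Gm2895 had 1437 mean counts. Of the other named members, 4930500M09Rik, 1700030C12Rik, Ino80d, a chromatin remodelling subunit gene, and Zfp652, a zinc finger gene, had log2 fold changes of 1.41, 0.77, 1.11 and 0.65 without overlap of the groups. Cd151, a tetraspanin gene, had -1.08 with overlapping groups. The adjusted p of these 5 ran from 0.550 to 0.650 (edgeR). Without control replicate 3, 4930500M09Rik had a log2 fold change of 2.14 and an adjusted p of 0.450 (edgeR).

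In PINCH2 mutants against controls, 0 members passed in either direction, where 0% of all rows passed as higher and 0.0211% as lower ones. At an unadjusted p under 0.05, there were 15 higher and 12 lower members, 1.95% and 1.56% of the members, where 1.67% and 2.6% of all rows were. The groups did not overlap for 39 higher and 21 lower members, against 4.24% and 4.81% of all rows. The median log2 fold change was 0.07 over members and 0.004 over all rows, with 60.3% and 50.7% above 0. Both mutants were set against the same 3 controls, so their values are not independent.

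Zfp652, which also overlaps Abi3 and whose mate 1110035M17Rik had 0.111 mean counts, had the smallest p, with 65, 68 and 65 counts in control pools, 80, 98 and 136 in PINCH1 mutants and 134, 112 and 100 in PINCH2 mutants. All PINCH2 mutants lay above all controls, with a log2 fold change of 0.82 (SE 0.24, edgeR adjusted p = 0.999). Cntnap1, which encodes the axonal protein Caspr of the junctions beside the node of Ranvier, had 37, 34 and 42 counts in control pools, 47, 17 and 63 in PINCH1 mutants and 64, 80 and 77 in PINCH2 mutants. Its PINCH2 values stood above both other groups, at 70.7 ± 5.81 CPM against 36.0 ± 3.42 in controls (SD, n = 3), and its log2 fold change of 0.97 (SE 0.32) had an edgeR adjusted p of 0.999. Its mate Plekhh3 had 2.22 mean counts. Neuron markers summed to 4.71 CPM or less in every library, and the strand setting is unknown. Whether the reads of the Cntnap1 row are those of Cntnap1 was not tested.

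Coq4, for coenzyme Q synthesis, had 22, 25 and 36 counts in control pools and 62, 58 and 39 in PINCH2 mutants, without overlap after scaling. Epb4.1, a membrane skeleton gene, and Acin1, a splicing-associated gene, had log2 fold changes of 0.64 and 0.57, and St6gal1, a sialyltransferase gene, Serinc3 and Asrgl1 had -0.61, -1.21 and -1.72. For each of these members the groups did not overlap, and none passed the test. The standard error had a median of 0.34 on the log2 scale over members, which sets how small a change 3 pools a group could resolve.

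Between the 2 mutants, 0 members passed as higher or as lower in PINCH1, against 0.0422% of all rows in each direction. At an unadjusted p under 0.05, there were 19 higher and 16 lower members, 2.47% and 2.08% of the members, where 2.91% and 3.44% of all rows were. The groups did not overlap for 44 higher and 47 lower members, against 5.42% and 5.57% of all rows. Zmynd15, a zinc finger gene and mate of the chemokine gene Cxcl16, had 55, 45 and 56 counts in PINCH1 mutants, 15, 35 and 26 in PINCH2 mutants and 27, 26 and 40 in the controls. Its log2 fold change was 1.04 (SE 0.33, edgeR adjusted p = 0.456), with the PINCH1 mutants above the other groups.

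Kctd18 and Adal, an adenosine deaminase-like gene, had log2 fold changes of 0.80 and 1.78, while A530032D15Rik, Zfyve9, Cntnap1, Dnajc7 and Siah1a, a ubiquitin ligase gene, had -1.09, -0.88, -0.87, -0.60 and -0.67. Their edgeR adjusted p ran from 0.537 to 0.717, and only Siah1a had overlapping groups. Without the second PINCH1 mutant, Cntnap1 had -0.55 (edgeR adjusted p = 0.944). Gm16256, outside the rule for named genes and chosen after its values were seen, had a log2 fold change of -1.59 and adjusted p = 0.0372 with no filter, and Gm15788, chosen likewise, -0.89 and adjusted p = 0.0443 with the filter of at least 1 CPM. Neither passed as tested above. No member of any of the 9 gene lists described passed in any of the 3 comparisons. Over the 7 tested respiratory chain members, the median log2 fold change was 0.04 in PINCH1 mutants and -0.23 in PINCH2 mutants, and over the 6 tested chaperone members it was -0.19 and -0.31, beside -0.022 and 0.004 over all rows tested.

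Finally, the ratio of the plus row to the minus row within each library was compared between genotypes, which asks whether the rows of 1 pair change unequally. The limma test on the log2 ratio of counts, with 0.5 added, covered 931 opposite-strand pairs, 207 of them divergent. In each of the 3 comparisons 0 divergent pairs passed, and 0% of all pairs did. At an unadjusted p under 0.05 there were 12, 10 and 6 of the 207 divergent pairs in PINCH1 mutants, in PINCH2 mutants and between the mutants, which is 5.8%, 4.83% and 2.9%. Over all 931 pairs it was 5.48%, 3.44% and 5.59%.

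The smallest p belonged to Gnas over Nespas in PINCH1 mutants. The log2 ratio of counts was -0.09 ± 0.52 in controls, -2.03 ± 0.23 in PINCH1 mutants and -1.02 ± 0.30 in PINCH2 mutants (SD, n = 3). Gnas took 48.5% ± 8.96 of the pair's counts in controls, 19.6% ± 2.54 in PINCH1 mutants and 33.1% ± 4.62 in PINCH2 mutants. The difference in PINCH1 mutants was -1.94 (SE 0.36, limma adjusted p = 0.148), with the mutants below all controls. In the other comparisons it was Atp5d, an ATP synthase subunit gene, over Dos. Atp5d had 7, 11 and 15 counts in control pools, 16, 12 and 9 in PINCH1 mutants and 3, 4 and 4 in PINCH2 mutants, while Dos, which also overlaps Stk11, had 189 to 301 per library. The log2 ratio differed by -1.37 (SE 0.48) between PINCH2 mutants and controls and by 1.65 (SE 0.48) between PINCH1 and PINCH2 mutants, with limma adjusted p = 0.999 and 0.833.

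**Figure D4:**
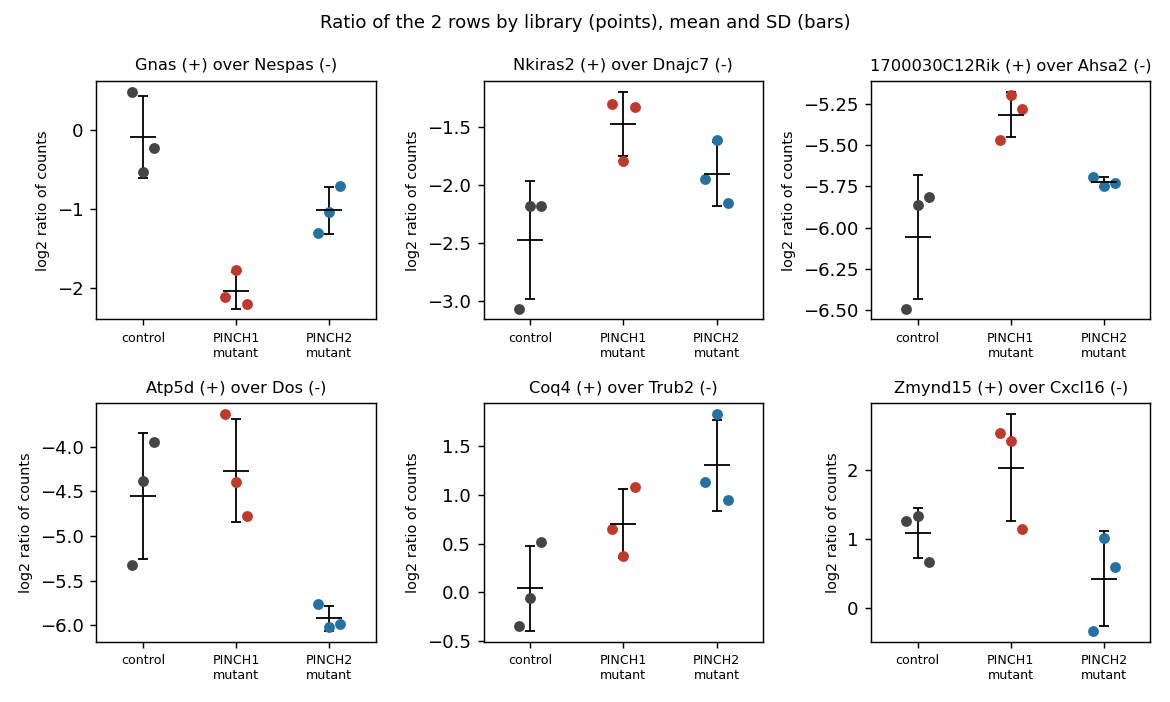
Log2 ratio of plus-row to minus-row counts (y axis, 0.5 added, its range differing between panels) in each library (points) of 3 genotypes for 6 divergent pairs, with the mean and SD of 3 libraries (bars). Gnas over Nespas is lowest in the 3 PINCH1 mutants and Atp5d over Dos in the 3 PINCH2 mutants.

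The plot of ratios holds these pairs and 4 more chosen after their values were seen. Of these, Nkiras2 over Dnajc7 had log2 ratios of -2.48 ± 0.51 in controls and -1.47 ± 0.28 in PINCH1 mutants (SD, n = 3), and 1700030C12Rik over Ahsa2 had -6.06 ± 0.38 and -5.32 ± 0.14. In both the PINCH1 mutants lay above the controls, and the limma adjusted p was 0.594 for each.

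Across the 207 pairs, the log2 fold changes of the minus and plus rows had a correlation of 0.011 in PINCH1 mutants, -0.0032 in PINCH2 mutants and 0.24 between the mutants. Over all 931 pairs these were 0.086, 0.013 and 0.18. Both rows had the same sign of change in 53.6%, 53.1% and 54.6% of divergent pairs. These describe the pairs only: both rows of a pair come from the same libraries, overlap in sequence, and some rows are in more than 1 pair.

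**Figure D5:**
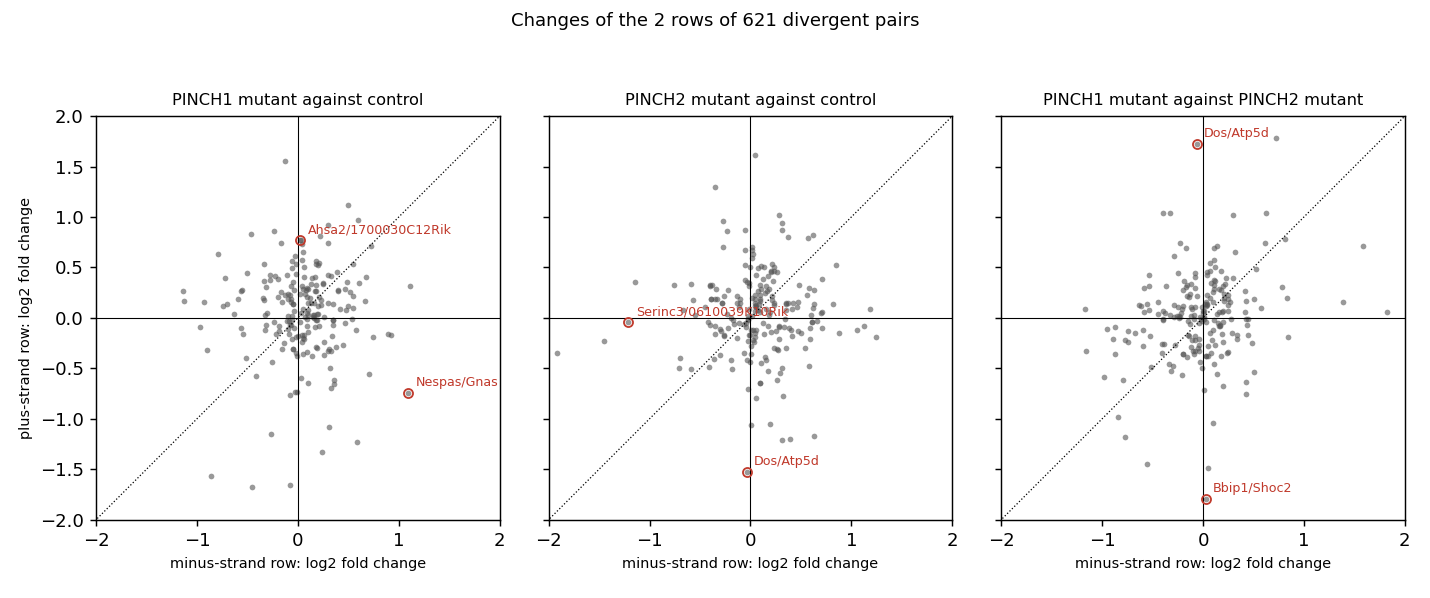
Log2 fold change of the minus-strand row (x axis) and the plus-strand row (y axis) in the 3 comparisons. Each panel holds the 207 divergent pairs with both rows tested, each point is a pair and the dotted line marks equal changes. The number in the title counts each pair once per comparison. Points scatter around 0 without following the dotted line in the comparisons with controls, where the correlations were 0.011 and -0.0032; the 2 pairs with the smallest p of the ratio test in each comparison are circled.

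In the plot of changes, most pairs lie within 1 unit of 0 on both axes. The pairs far from 0 tend to lie along 1 axis, as Atp5d with Dos does, where Atp5d had a log2 fold change of -1.53 and Dos of -0.04 in PINCH2 mutants.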

How the data were processed

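The authors deposited raw read counts per row for 9 libraries, with no scaling for depth or length. Per the submitters' processing notes, Trim Galore 0.4.2, cutadapt 1.9.1, HISAT2 2.0.5 and the build GRCm38 were used. No source used here gives the counting tool, its strand setting or the annotation release, and exons were taken from GENCODE M21, so lengths and exonic overlaps may differ from the authors'. Totals of 957828 to 1204964 counts per library limit what low rows can show, and limits from counts of 0 cover counting error only.

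Rows were tested with edgeR 4.0.16 (quasi-likelihood, robust, TMM scaling, filterByExpr, all 9 libraries, Benjamini-Hochberg over all 4738 tested rows, threshold 0.05). The ratio of 2 rows was tested with limma 3.58.1 (trend, robust) over 931 pairs, and levels per kilobase of merged exon by an exact sign-flip test over 9 libraries for pairs with a mean of at least 10 counts, with 0.5 counts added. Scripts were tested on simulated data. The members and lists were chosen with earlier results of these data known. Named were the 10 pairs with the most counts, the 8 members with the smallest p in each comparison (none passed), the most and least even pairs, the longest and shortest overlaps, up to 4 members of each list, and the pair with the smallest p of each ratio test. Genes beyond that rule, the promoter search and its motifs were chosen after values were seen; RefSeq windows were matched at the nearest start, because a limit of 1000 bases kept 962 of 1375 coding rows of divergent pairs (70.0%). Alternatives were RLE and upper-quartile scaling, DESeq2 1.42.0, limma-voom, other filters, priors and thresholds, fewer libraries and a replicate block. Of the textbook pairs, 1 is not reported here.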

Additional observations from a re-analysis of the deposited data

How the results depend on the processing

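The labels give the same replicate numbers in each group, but only 3 of 9 same-numbered pairs of libraries deviated together with a correlation over 0.1, where pairing was taken to need all of them, so the main tests use no block. The same number correlated best in 10 of 18 checks, where 6 are due by the number of libraries alone; this is a hint from the data, not from the design. With the replicate block, 0 members and 0 pair ratios passed in each of the 3 comparisons, as without it. In PINCH1 mutants against controls, 1 member was higher (Nespas) and 1 lower (Dnajc7) with no filter and likewise with at least 1 CPM in 3 libraries; without 1 library the counts ranged from 0 to 1 in each direction, reached without the second control only. Between the mutants, 1 member was lower with no filter (Gm16256) and 2 with the filter of at least 1 CPM (Gm16256 and Gm15788). The cause was not tested. The pairs called per kilobase, 507, fell to 284 when pairs with a further opposite-strand partner were left out, an alternative added after seeing the data that holds fewer pairs; without 1 library they ranged from 499 to 510. Counts of pairs and of calls under the other alternatives stayed within 1.5 times. DESeq2, limma-voom and the other scalings called 0 members. Depth limits rows of under about 20 counts. Odd values made up 73.2% of member values from 1 to 4 against 51.1% of those over 50. Values from 1 to 4 need not be evenly spread, so these shares alone cannot show a fault of the counting, and no cause was tested.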
